A study of Rattus norvegicus with 3 samples.

Results

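Nucleoporins and nuclear transport receptors are measured here in rat F65 cells, an induced pluripotent stem (iPS) line, relative to a mix of adult rat cells. The members were the gene probes whose array name begins with a nucleoporin, importin, exportin, transportin or Ran-system symbol, which gave 66 of 41012 probes and 47 of 35561 distinct gene names. They hold 20 proteins of the nuclear pore, 23 karyopherins (the importins, exportins and transportins) and 4 other genes (Ran, Rangap1, Nxf1 and Ranbp10). Each of 3 iPS F65 samples, untreated and maintained on irradiated mouse embryonic fibroblasts in embryonic stem cell medium with serum, was labelled with Cy3. Each was hybridised on its own 2-colour array against mix1, labelled with Cy5, a mixture of bone marrow cells with primary fibroblasts of the ear, both from rat and grown in medium with serum. F65 is 1 line, mix1 is 1 control sample, and no label states whether the 3 iPS samples were cultured apart. A p-value here thus reflects the spread among 3 samples alone, possibly a technical one, without any spread of the adult cells. The 3 arrays share 1 slide and 1 scan with the same dye orientation, so dye and cell type cannot be told apart.

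The nuclear pore complex is a ring-shaped channel through the nuclear envelope, built from scaffold nucleoporins (the Y complex and the inner ring), membrane anchors, filaments on the cytoplasmic face and a basket on the nuclear face. Its central channel is filled with nucleoporins rich in phenylalanine-glycine repeats, through which karyopherins carry cargo. Importins bind cargo in the cytoplasm and release it when they meet Ran bound to GTP in the nucleus, whereas exportins bind cargo together with Ran-GTP and release it outside. Pores are inserted as nuclei grow in interphase and are rebuilt after every mitosis.

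For 4 members the probe sequences are shown, because their probes bear on how far 1 value can stand for a gene. Coordinates follow the build rn3, named in the headers of the array files; the annotation of that build was not used here, so exon, intron or UTR status is not given. The first 30 of the 60 bases of each probe are printed, 5′ to 3′, in lower case. The brighter Ranbp10 probe lies at chr19:35606141-35606200 and the dimmer at chr19:35610656-35610715, both on the minus strand. The Ipo9 probes lie, from brightest to dimmest, at chr13:48396249-48396308, chr13:48397257-48397529 and chr13:48434254-48434861 on the minus strand. Those of Cse1l lie at chr3:158005657-158005716 (brighter) and chr3:158002788-158002847, and those of Nup160 at chr3:74997724-74997783 (brighter) and chr3:74993062-74994571, all on the plus strand. Some of the spans listed in the files are longer than the 60 bases of a probe.
Ranbp10, brighter: acctctgcataggttccctccatcatcaac
Ranbp10, dimmer: gcgagtgtctccacacgcatcgtcaatggg
Ipo9, brightest: agttactgccattactcttcagaaacatac
Ipo9, middle: cagcttttatctgacattcttgctacaagt
Ipo9, dimmest: ccggaaactacagaaagggcaaaaattgtt
Cse1l, brighter: aatactgctgtaagccaatgaggtttgtct
Cse1l, dimmer: ggaatggttttggaaaaaatcattattcca
Nup160, brighter: gtccagaactgacatatattttctgtattg
Nup160, dimmer: tgaatatgtagatgctgtattgggaaaagg

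Well above background were 57.1% to 61.2% of an array's gene spots for iPS F65 and 58.3% to 62.1% for mix1, and the number of arrays, 3, limits the precision of every value. The cell labels were checked with markers. Of 5 measured iPS markers, 4 were higher in iPS F65 (Pou5f1, Dnmt3b, Nr0b1 and Tdh), against 30.9% of all tested genes. Lin28 had a log2 ratio of -0.02. Sox2, Nanog and Utf1 had no probe under these names. Pou5f1 was not well above background in mix1 on any array, with a measured log2 ratio of 2.71 ± 0.58. It was called in 4 of 5 scalings of the dyes, with a lowest value of 0.61, whereas Dnmt3b, Nr0b1 and Tdh were called in all 5. All 8 fibroblast markers and 6 of 7 measured myeloid markers were lower, against 24.5% of all tested genes. The exception was Ptprc, with a log2 ratio of -2.26 ± 1.64. Thy1 was not well above background in iPS F65 on any array. Thy1 and Ctss were called lower in 4 of 5 scalings, Ptprc in 3 and the other markers of both lists in all 5. The summed processed signal of the fibroblast markers ran from 5278 to 7382 in iPS F65 against 1791011 to 2283444 in mix1. That of the myeloid markers ran from 3112 to 3928 against 217129 to 254115. The part of RNA from the mouse feeder cells in the iPS signals was not tested. In bulk RNA, fewer cells of a type and less RNA per cell cannot be told apart.

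In the processed signals, most of the pore and transport machinery was higher in iPS F65 than in the adult cells. Of the 47 members, 31 (66.0%) were higher by at least 2-fold and none was lower (limma, adjusted p under 0.05), while 30.9% of all 21805 tested genes were higher and 24.5% lower. All 66 member probes passed the filter on dim probes, and 45 of the 47 genes gave signals well above background for both RNAs on every array. The members' median log2 ratio was 1.30, against 0.25 for all tested genes, with array medians of 1.31, 1.30 and 1.29. Without the 2-fold limit, 42 members were higher and 3 lower at an adjusted p under 0.05, and the same counts held at an unadjusted p under 0.05. Of all tested genes, 11860 were higher and 8974 lower at that adjusted p. The 3 were Sec13l1, Tnpo2 and Ranbp10. Ipo9 and Ipo13 passed in neither direction. The SD between arrays had a median of 0.021 over members and 0.043 over all tested genes on the log2 scale. With so small a spread 20834 of 21805 genes passed the adjusted p alone, which leaves the 2-fold limit to decide most calls. The level of the whole comparison depends on how the dyes are scaled: the median of all tested genes was 0.25 with the scanner software's processed signals and -0.08 after normexp background correction and loess. The members' median stood 1.05 above that of all genes in the first case and 1.07 above it in the second. With normexp and the local backgrounds as given, then loess, it stood 0.93 above it. Under the scalings with loess, 44.7% to 48.9% of the members were higher by at least 2-fold, against 10.8% to 18.3% of all tested genes.

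**Figure D1:**
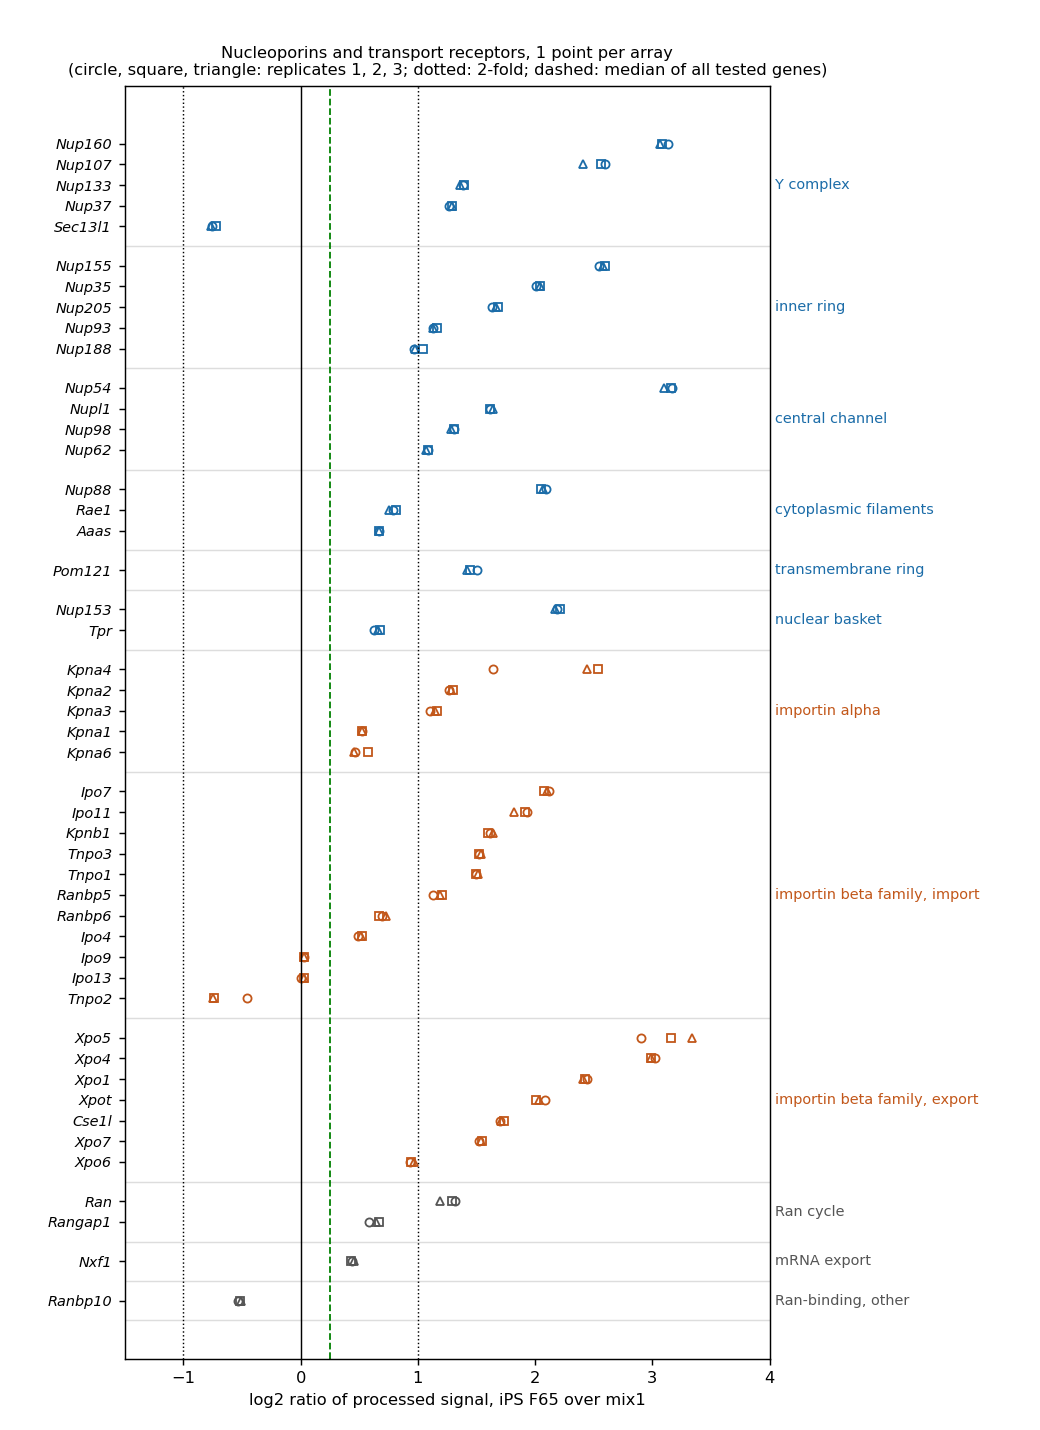
Log2 ratio of processed signal, iPS F65 over mix1 (horizontal axis), for the brightest probe of each of the 47 members, grouped by role, with 1 symbol per array. Solid and dotted vertical lines mark equality and 2-fold, and the dashed line marks the median of all tested genes, 0.25; 31 members lie beyond 2-fold on the right and none on the left.

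The Y complex is the outer scaffold of the pore. Of its 5 measured members 4 were higher, against 30.9% of all tested genes. Nup160, which forms an arm of the complex, gave processed signals of 20352, 23469 and 23077 in iPS F65 and 2324, 2775 and 2760 in mix1 on the arrays of replicates 1, 2 and 3. Every iPS value lay above every mix1 value, and the log2 ratio was 3.09 ± 0.035 (SD, n = 3), or 8.52-fold. Nup107 gave 3682, 4033 and 4120 in iPS F65 and 609, 684 and 778 in mix1, a log2 ratio of 2.52 ± 0.10. The stem protein Nup133 followed with 1.38 ± 0.017 and the peripheral member Nup37 with 1.28 ± 0.015. Sec13l1, the array's name for Sec13, which also belongs to the COPII coat of vesicles leaving the endoplasmic reticulum, stood apart from its complex. Its signals were 23674, 26871 and 27286 in iPS F65 and 40035, 44455 and 46357 in mix1, a log2 ratio of -0.75 ± 0.020 (1.68-fold lower, short of the 2-fold limit). It was the lowest ratio of all members.

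The inner ring is the scaffold that lines the channel and binds the membrane. Of its 5 measured proteins 4 were higher, against 30.9% of all tested genes. Nup155 gave log2 ratios of 2.54, 2.60 and 2.58 on the 3 arrays and Nup35, which binds the pore membrane, gave 2.01, 2.04 and 2.05. The large scaffold protein Nup205 had a mean of 1.66 ± 0.030. Its partner Nup93 had 1.14 ± 0.017 and was called in 2 of 5 scalings. Nup188, the structural relative of Nup205, had 1.00 ± 0.040 and just missed the limit, with a value of 0.97, 1.04 and 0.98 on the 3 arrays. The closest members to the limit were Nup62 at 1.08 inside it and Nup188 outside it.

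All 4 measured nucleoporins of the central channel, which carry the phenylalanine-glycine repeats, were higher, against 30.9% of all tested genes. Nup54 had the highest ratio among the members measured above background in both channels. It gave 22215, 24357 and 22130 in iPS F65 against 2473, 2732 and 2589 in mix1, a log2 ratio of 3.14 ± 0.039 or 8.81-fold, with no overlap between the channels. Nup54 forms a complex with Nup62 and with Nup58, which the array names Nupl1. With their brightest probes Nupl1 had 1.62 ± 0.013 and Nup62 had 1.08 ± 0.010. The other probes of Nupl1 gave 1.04, 1.32 and 2.12 and that of Nup62 gave 1.26, so these partners overlapped between probes, while all their probes lay below Nup54. Nup62 was called in 1 of 5 scalings of the dyes, the processed signals. Nup98, whose repeats help form the permeability barrier, had 1.30 ± 0.011 with its brightest probe and was called in 2 of the 5. Its other probes gave 1.34 and 2.61, the last not well above background in mix1 on any array.

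At the pore's 2 faces the members split. On the cytoplasmic side Nup88, which holds the filament protein Nup214, was higher, with signals of 21032, 26189 and 25796 in iPS F65 and 4923, 6317 and 6156 in mix1 and a log2 ratio of 2.07 ± 0.022. The mRNA export factor Rae1 (0.79 ± 0.029) and Aaas, which encodes aladin, the protein altered in triple A syndrome (0.67 ± 0.0013), did not reach 2-fold. On the nuclear side the basket protein Nup153 was higher at 2.19 ± 0.021, whereas Tpr, the coiled-coil protein that forms the basket's struts, had 0.65 ± 0.025. Pom121, the 1 membrane anchor measured, was higher at 1.46 ± 0.045. Every array placed Nup88 above Rae1 and Aaas and Nup153 above Tpr.

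Importin alpha proteins recognise classical nuclear localisation signals, and 3 of the 5 measured were higher, against 30.9% of all tested genes. Kpna2, the form known for its high level in embryonic stem cells, gave 49069, 58252 and 60114 in iPS F65 and 20394, 23699 and 24772 in mix1. Its log2 ratio was 1.28 ± 0.016, or 2.43-fold. Kpna3 had 1.14 ± 0.031 with its brighter probe and 1.87 with its dimmer probe. Kpna4 gave only 179, 183 and 196 in iPS F65 and was not well above background in mix1 on any array, so its ratio is a bound. In the processed signals it was at least 2.79-fold higher, with a measured log2 ratio of 2.21 ± 0.49 (limma, adjusted p = 0.00199). Kpna1 (0.52 ± 0.0027) and Kpna6 (0.50 ± 0.064) did not reach 2-fold. Kpna2 kept its call in all 5 scalings, whereas Kpna3 was called in 1 and Kpna4 in 2, with lowest values of 0.73 and 0.42. The bound of Kpna4 thus does not hold across scalings.

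Of 11 measured import receptors of the importin beta family, 6 were higher, against 30.9% of all tested genes. Kpnb1, importin beta itself, which carries importin alpha and its cargo through the pore, gave 3263, 3562 and 3677 in iPS F65 and 1066, 1176 and 1179 in mix1. The log2 ratio was 1.62 ± 0.021, or 3.07-fold. Ipo7, a carrier of ribosomal proteins and histone H1, was the highest of the import receptors at 2.10 ± 0.023, followed by Ipo11 at 1.89 ± 0.063. Tnpo3, which imports splicing factors with serine-arginine domains, had 1.53 ± 0.0088, and Tnpo1, which imports hnRNP proteins, had 1.5 ± 0.010. The dimmer probe of Tnpo1 gave 2.26. Ranbp5, the array's name for importin 5, had 1.18 ± 0.038 and was called in 2 of 5 scalings. Those short of the limit were Ranbp6 (0.70), the histone carriers Ipo4 (0.51) and Ipo9 (0.03), and Ipo13, which works in both directions (0.02). Ipo13 gave 2194, 2477 and 2528 in iPS F65 against 2186, 2432 and 2481 in mix1, a difference within the spread of either channel (adjusted p = 0.272). The signs of Ipo9 and Ipo13 turned to negative under each of the other dye scalings tried, down to -0.40 and -0.43. Tnpo2, a close relative of Tnpo1, lay on the other side, with 392, 262 and 224 in iPS F65 and 539, 439 and 377 in mix1 and a log2 ratio of -0.65 ± 0.16. It was lower than mix1 on every array, although the ranges of the channels overlapped.

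Among export receptors 6 of 7 were higher, against 30.9% of all tested genes. Xpo1 (CRM1), the exporter of proteins with leucine-rich signals, gave 52268, 59668 and 60590 in iPS F65 and 9640, 11102 and 11405 in mix1. The channels did not overlap, and the log2 ratio was 2.42 ± 0.015, or 5.37-fold. Xpo4 gave 10608, 11648 and 11957 against 1309, 1468 and 1509, with a log2 ratio of 3.00 ± 0.018. Xpot, which exports tRNA, had 2.04 ± 0.039, Cse1l, which returns importin alpha to the cytoplasm, 1.72 ± 0.018, and Xpo7 1.54 ± 0.016. Xpo5, the exporter of microRNA precursors, was dim. It gave 122, 142 and 152 in iPS F65 and was not well above background in mix1 on any array. In the processed signals it was at least 2.06-fold higher, with a measured log2 ratio of 3.14 ± 0.22. That bound does not hold across scalings: Xpo5 was called in 4 of 5, with a lowest log2 ratio of 0.45. Xpo6, which exports actin, had 0.95 ± 0.019 and was not called.

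The median of the 7 export receptors lay above that of the 11 import receptors of the same family on each array, by 0.95, 0.81 and 0.84. It did so in each of the 13 settings in which it was computed, by 0.60 to 1.21. These settings are not separate evidence, since all draw on the same arrays. Centring cannot change a difference. Testing without a filter on dim probes, or with 1 probe per gene in the fit, repeated the main value of 0.87. This is a description of 18 genes, with no test, since genes are not replicates. The families overlap widely: Ipo7 and Ipo11 lay above Cse1l, Xpo7 and Xpo6.

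Pore proteins and karyopherins had similar medians, and no test was made between these classes. Of 20 pore proteins 15 were higher (75%), and of 23 karyopherins 15 (65.2%), against 30.9% of all tested genes. The median log2 ratio was 1.42 for the pore and 1.5 for the karyopherins. The difference, pore minus karyopherin, was -0.06, -0.07 and -0.13 on the 3 arrays. Its sign was not stable, since it became 0.06 with normexp and loess after replacing flagged local backgrounds and 0.49 with the local backgrounds as given. Restricted to probes well above background in both channels, it was 0.14. In the processed signals, with no such restriction, 19 of 20 pore proteins had a ratio above the median of all tested genes, and 20 of 23 karyopherins did. Ipo9, Ipo13 and Tnpo2 made up the 3 exceptions among the karyopherins, and Sec13l1 was the only one of the pore.

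**Figure D2:**
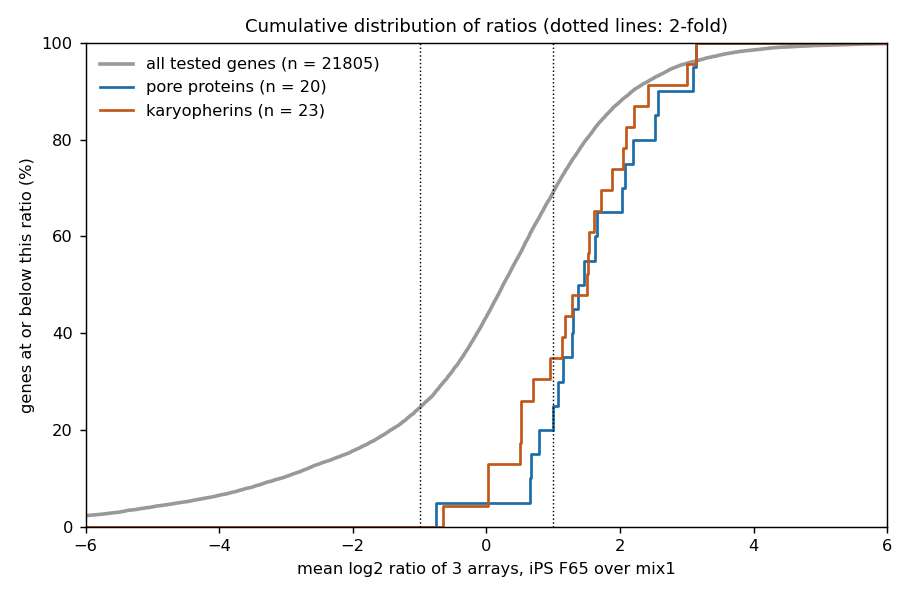
Percentage of genes (vertical axis) with a mean log2 ratio at or below the value on the horizontal axis, for all 21805 tested genes (grey), 20 pore proteins (blue) and 23 karyopherins (orange). Both member classes lie to the right of all genes between ratios of -1 and 2, with medians of 1.42 and 1.5 against 0.25, and they cross each other.

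Outside both classes, Ran itself, the small GTPase whose nucleotide state sets the direction of transport, was higher. It gave 261151, 329840 and 295221 in iPS F65 and 105136, 134691 and 129481 in mix1, a log2 ratio of 1.26 ± 0.066 or 2.40-fold, a call made in 1 of 5 scalings (lowest value 0.87). The file places the Ran probes on chromosomes 12 and 1, so at least 1 of them may match a copy of the gene. Rangap1, which makes Ran hydrolyse GTP on the cytoplasmic side, had 0.63 ± 0.047. Nxf1, the main export receptor of mRNA, which is no karyopherin, had 0.44 ± 0.016. Rcc1, Ranbp1, Nutf2, Nup210 and Ranbp2 were not analysed here.

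Some calls depended on how the dyes were scaled. Under 5 scalings, 19 members were higher by at least 2-fold in all, 12 in some and 16 in none, and 42 of the 47 kept a ratio above 0 in all. The 19 were Nup54, Nup160, Nup155, Nup107, Nup153, Nup88, Nup35, Nup205, Nupl1 and Nup133 of the pore and Xpo4, Xpo1, Ipo7, Xpot, Cse1l, Kpnb1, Tnpo3, Tnpo1 and Kpna2 of the karyopherins. Of the 12, Xpo5 and Ipo11 were called in 4 scalings, Xpo7, Pom121 and Nup37 in 3, and Kpna4, Nup98, Ranbp5 and Nup93 in 2. Ran, Kpna3 and Nup62 were called with the processed signals alone, in 1 of 5. The dim Xpo5 and Kpna4 moved most, to 0.45 and 0.42 with normexp and backgrounds as given. With normexp, flagged backgrounds replaced and loess, 21 of 47 members (44.7%) were higher against 18.3% of all genes. With backgrounds as given it was 23 of 47 (48.9%) against 10.8%, and without background subtraction 22 of 47 (46.8%) against 18.2%. No member was called lower in these 3 scalings, against 26.1%, 9.49% and 26.0% of all genes. With the processed signals centred on the median of all probes, 26 of 47 (55.3%) were higher against 24.5% of all genes. In that scaling Sec13l1 alone was called lower, at -1.02, against 28.4% of all genes. With a 1.5-fold limit 38 of the 47 members were higher against 41.3% of all genes, and 2 of the 47 lower against 30.7%. Leaving out the array of replicate 1, 2 or 3 gave 32, 31 and 32 of the 47 members higher. The shares of all genes were 30.8%, 30.7% and 30.7%.

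**Figure D3:**
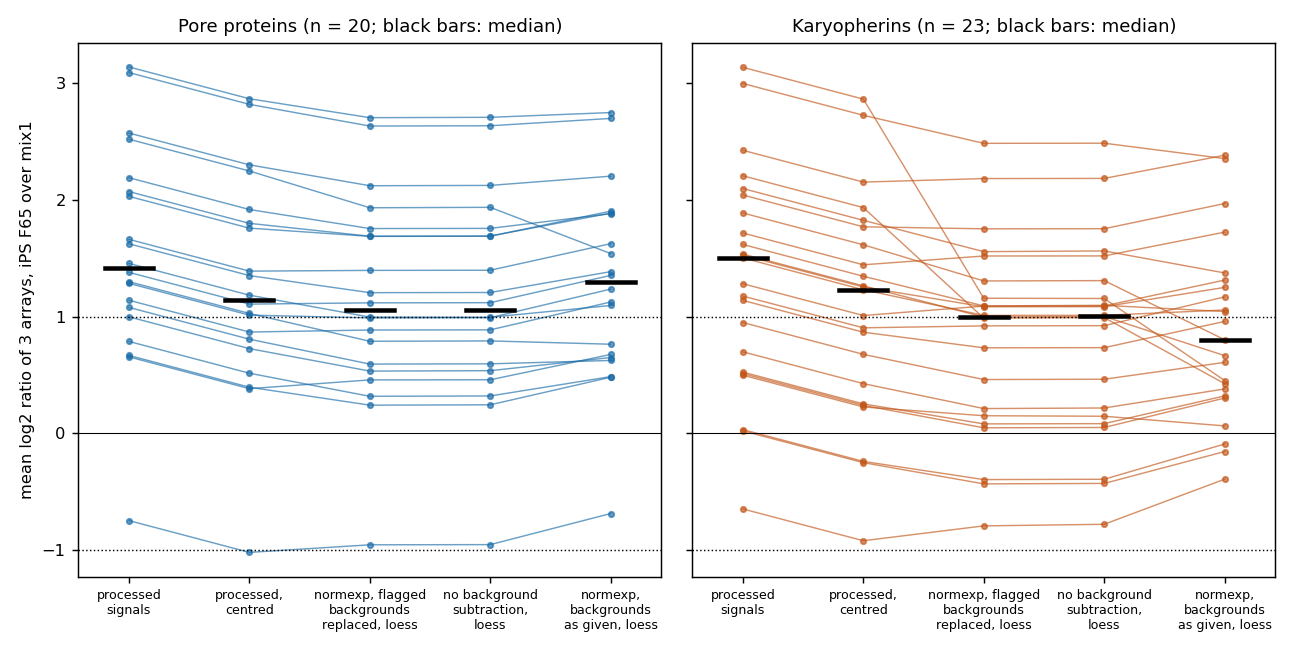
Mean log2 ratio of 3 arrays (vertical axis) of each pore protein (left, n = 20) and karyopherin (right, n = 23) under 5 scalings of the dyes and background (horizontal axis), with 1 line per gene and black bars at the class medians. The dim karyopherins Xpo5 and Kpna4 drop from 3.14 and 2.21 to 0.45 and 0.42.

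Of the 47 genes, 15 had more than 1 probe, and these gave a further reading under the same gene name. Whether the probes of a gene detect the same RNA was not tested. In 12 of the 15 the dimmest probe gave a higher log2 ratio than the brightest. Among all 3243 tested genes with several probes that share was 64.7%. Cse1l had 1.72 with its brighter probe and 3.06 ± 0.027 with its dimmer probe, both called. Ran had 1.26 and 2.10 ± 0.060. Ipo9 had 0.03, 0.48 and 1.53 ± 0.080 with the 3 probes printed above, so that only the dimmest reached the limit. Ranbp6 was also called with its dimmer probe alone (1.26 ± 0.018). By contrast the Nup160 probes gave 3.09 and 2.96 ± 0.018, those of Rangap1 0.63 and 0.51, and those of Tpr 0.65 and 0.82. With the median over probes, 32 of the 47 members were higher against 31.3% of all genes. With the dimmest probe 34 of the 47 were, against 31.8%.

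Ranbp10, a relative of Ranbp9 that is named for binding Ran and is not a transport receptor, gave opposite readings. The brighter probe gave 8428, 9709 and 9399 in iPS F65 and 12238, 13915 and 13379 in mix1, a log2 ratio of -0.52 ± 0.015. The dimmer probe gave 1944, 2596 and 2330 in iPS F65 and was not well above background in mix1 on any array. In the processed signals it was at least 34.0-fold higher, with a measured log2 ratio of 6.10 ± 0.29. That bound was not checked under the other scalings, which were read for the brighter probe alone. Both sequences are printed above, and the file places them within 4575 bases on 1 strand of chromosome 19. Both readings were repeated on all 3 arrays, so the direction of Ranbp10 depends on the probe. What each probe detects was not tested.

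**Figure D4:**
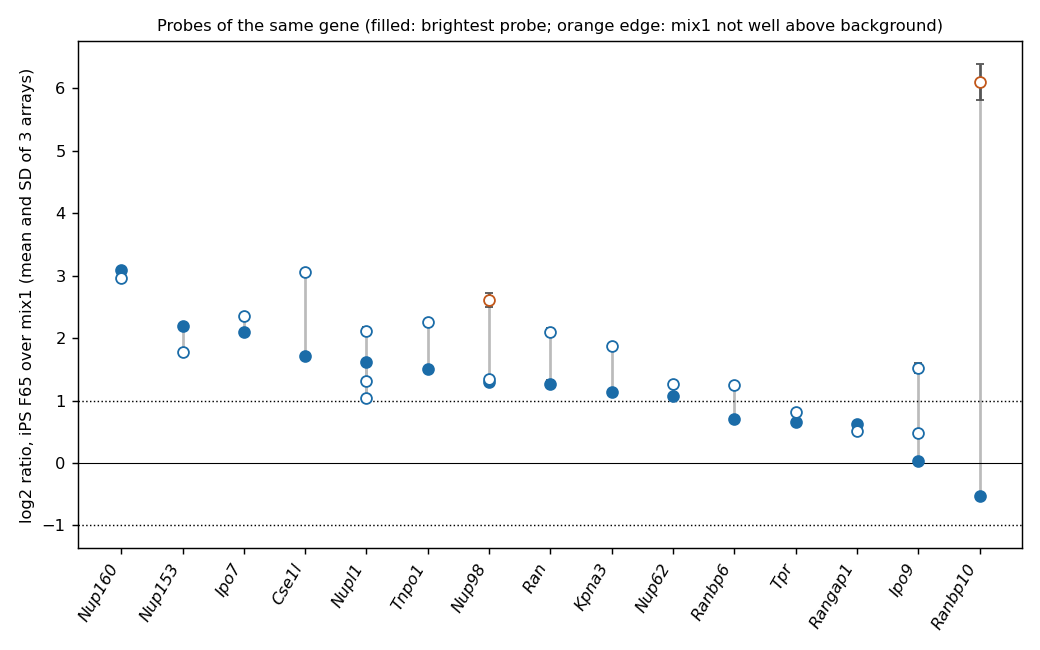
Log2 ratio, iPS F65 over mix1 (vertical axis, mean and SD of 3 arrays), of every probe of the 15 members with more than 1 probe. Filled points are the brightest probe of a gene and orange edges mark probes not well above background in mix1; the Ranbp10 probes lie at -0.52 and 6.10.

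Other genes of RNA export and of the nuclear envelope were read beside the members. Of 13 measured mRNA export factors outside the rule, 9 were higher and none lower (limma, adjusted p under 0.05), with a median of 1.28. Of all tested genes, 30.9% were higher and 24.5% lower. None of the 13 was lower at an unadjusted p under 0.05 either. Nxt2, a partner of the Nxf export receptors that was above background in mix1 on 1 of 3 arrays, had a measured 3.79 ± 0.17, and 1.21 at its lowest over the scalings, and Thoc1, a subunit of the THO complex that couples transcription to export, had 1.89 ± 0.0086. Under the other scalings 6 to 8 of the 13 were higher, against 10.8% to 24.5% of all tested genes. The nuclear envelope and lamina list moved both ways, with 8 of 14 higher and 2 lower, against 30.9% and 24.5% of all tested genes. Lmnb1, which encodes lamin B1, had 2.35 ± 0.040, the lamin B receptor Lbr 2.36 ± 0.046 and Ahctf1, which seeds pores on chromatin after mitosis, 1.80 ± 0.023. Lmna, which encodes lamins A and C and is low in undifferentiated cells, had -4.02 ± 0.072, and Lemd2 had -1.52 ± 0.060, a call that was lost with normexp and backgrounds as given (-0.82). Lmna, Lmnb1, Ahctf1 and Thoc1 kept their calls in each of the 5 scalings, while Lbr and Nxt2 kept theirs in 4.

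Genes of DNA replication were higher along with the members. Of 23 measured, 22 were higher and none lower (limma, adjusted p under 0.05), against 30.9% and 24.5% of all tested genes. None of the 23 was lower at an unadjusted p under 0.05. Their median was 1.82, against 1.30 for the members. Under the other scalings 17 to 20 of the 23 were higher, against 10.8% to 24.5% of all tested genes. The summed processed signal of the 23 ran from 438192 to 513225 in iPS F65 and from 155539 to 181581 in mix1. The part of a difference in cell division in the members' ratios was not tested.

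**Figure D5:**
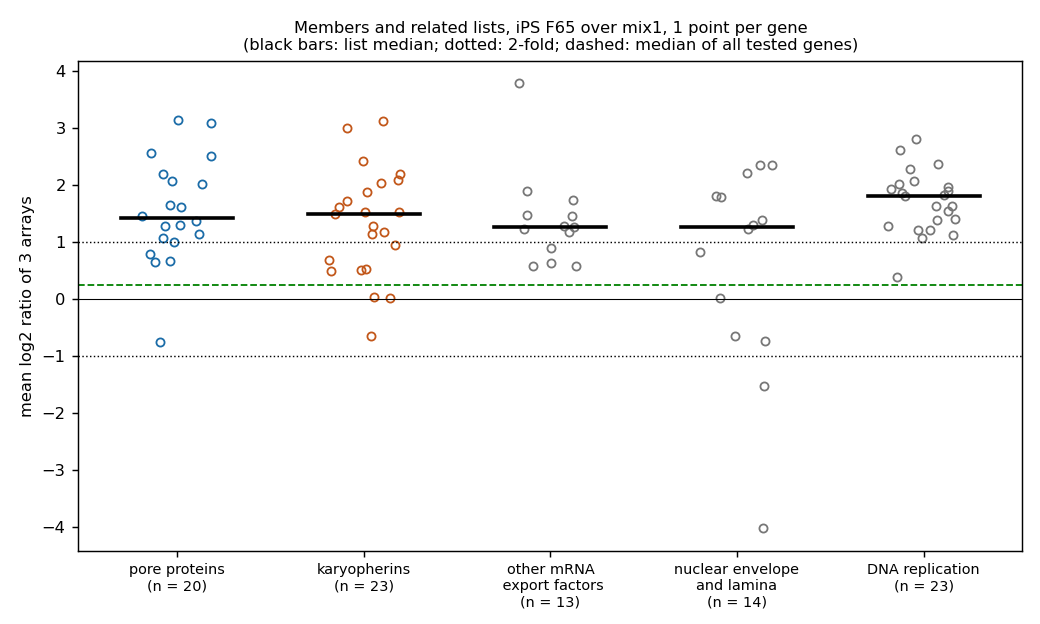
Mean log2 ratio of 3 arrays, iPS F65 over mix1 (vertical axis), with 1 point per gene, for the pore proteins, karyopherins and 3 related lists (horizontal axis). Black bars are medians (1.42, 1.5, 1.28, 1.27 and 1.82), the dashed line is the median of all tested genes (0.25), and only the envelope list reaches below -1.

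Promoters were read from RefSeq on the build GRCr8, where 41 of the 47 members had an entry of 250 bases before and 50 after the start. A CCAAT box (CCAAT on either strand) was in 17 of 41 (41.5%), against 38.0% of the 8803 promoters of tested genes and 37.7% of all 27457 promoters. It was in 13 of 26 promoters of called members and in 4 of 15 of the others, with no test. A GC box (GGGCGG) was in 65.9% of the members, 61.4% of tested genes and 34.9% of all promoters. An E-box (CACGTG) was in 5 of 41 members (12.2%, against 9.37% of tested genes and 6.65% of all). ETS letters (CCGGAAG) were in 17.1%, 17.6% and 9.22% respectively. E2F letters (TTTGGCGC, TTTCCCGC or TTTCGCGC, of which the second can overlap a GC box) were in 2 of 41, NRF1 letters (GCATGCGC) in 3 and a TATA box (TATAAA) in 3. The members' shares of these were 4.88%, 7.32% and 7.32%, against 3.50%, 5.09% and 7.42% of tested genes and 1.82%, 2.66% and 14.3% of all promoters. The median number of CG dinucleotides per window was 25 in the members, 21 in tested genes and 7 in all promoters.

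The 250 bases before the start are shown for Nup54, whose ratio was the highest of those measured above background in both channels, the general protein exporter Xpo1 and Sec13, the member with the lowest ratio, with the searched letters in capitals. Nup54 lies at chr14:15901784-15902033 on the plus strand, Xpo1 at chr14:101434200-101434449 on the plus strand and Sec13 at chr4:148446736-148446985 on the minus strand (GRCr8). Capitals mark an E-box in Nup54, 2 CCAAT boxes and 2 GC boxes in Xpo1, and a TATA box, a GC box and 2 ETS matches in Sec13. A match is a description of letters and not a site of binding.
Nup54: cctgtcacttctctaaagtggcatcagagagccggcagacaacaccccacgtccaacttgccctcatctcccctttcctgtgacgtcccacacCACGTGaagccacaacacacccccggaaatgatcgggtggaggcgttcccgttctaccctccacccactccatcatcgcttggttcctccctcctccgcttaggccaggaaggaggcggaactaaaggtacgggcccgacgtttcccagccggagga
Xpo1: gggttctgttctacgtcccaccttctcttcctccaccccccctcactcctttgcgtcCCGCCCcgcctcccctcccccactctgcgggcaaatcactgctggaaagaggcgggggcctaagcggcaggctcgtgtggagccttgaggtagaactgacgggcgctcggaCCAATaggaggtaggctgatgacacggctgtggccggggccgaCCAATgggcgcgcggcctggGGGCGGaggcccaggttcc
Sec13: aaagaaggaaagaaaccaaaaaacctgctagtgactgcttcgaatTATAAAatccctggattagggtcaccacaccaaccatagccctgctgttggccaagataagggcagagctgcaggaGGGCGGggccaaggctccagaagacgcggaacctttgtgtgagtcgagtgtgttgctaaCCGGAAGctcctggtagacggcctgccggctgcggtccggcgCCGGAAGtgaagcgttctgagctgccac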

How the data were processed

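RNA of 3 iPS F65 samples (Cy3) and of mix1 (Cy5) was measured on 3 Agilent 2-colour arrays. Per the file headers, the authors' intensity values come from Agilent Feature Extraction 9.5.3.1, with spatial detrending, surrogate values for the dimmest spots and dye normalization within each array; LOWESS settings are listed, but the method is given only as a code. The log2 values deposited as the authors' value table equalled log2 of green over red processed signals (largest difference 3.11e-06), so they run iPS F65 over mix1 and were not centred further, with medians of 0.00, -0.01 and -0.06.

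Log2 of the processed Cy3 signal over the Cy5 signal was used, as the rule for members names it. Outlier spots (204 to 213 per array) were left out, no spot was saturated, and repeated spots of a probe entered as their mean. Tested were probes well above background on all 3 arrays in either channel (25801 of 41012 probes), and the brightest tested probe stood for a gene. Mean log2 ratios were tested against 0 with limma 3.58.1 (lmFit, eBayes; R 4.3.3) and adjusted by Benjamini-Hochberg over all tested probes. A call needed an adjusted p under 0.05 and 2-fold. The fit was tested on simulated data. Bounds use levels after Aquantile normalization, set against the lowest signals above background, and are open to dye bias. Mean signals corrected with normexp (offset 50) and loess served as alternatives.

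The members, roles and lists were chosen with earlier results of these data known. Named members are the 2 highest and the lowest of each role, members called lower and fixed genes; further members were named after their values were seen.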

Additional observations from a re-analysis of the deposited data

How the results depend on the processing

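The members' median log2 ratio of 1.30 was 0.99 with normexp (flagged backgrounds replaced) and loess, 0.96 with backgrounds as given, 0.99 without background subtraction and 1.03 after centring. It was 1.28 with probes above background in both channels, 1.47 with the median over a gene's probes and 1.54 with the dimmest probe, an alternative chosen after seeing the data. The pore minus karyopherin median of -0.08 became 0.061, 0.49 and 0.056 under the first 3 of these, 0.14 with both-channel probes and 0.023 with the dimmest probe. The count of members called lower, 0, became 1 after centring and 2 with a 1.5-fold limit, where 38 were higher. The envelope list's 8 higher and 2 lower of 14 became 5 and 1 of 14 with backgrounds as given, against 10.8% and 9.49% of all tested genes. Its 2 lower became 4 of 14 with a 1.5-fold limit, against 30.7% of all tested genes. Ranbp10 turned to 2.79 with the median over probes and to 6.10 with the dimmest. Leaving out 1 replicate gave 31 to 32 members higher and medians of 1.30 for the members and -0.10 to -0.06 for pore minus karyopherin; among the 32 named members it changed only the call of Nup188, which was called without replicate 1 and without replicate 3. Testing without a filter on dim probes, or with 1 probe per gene in the fit, left the calls of all 32 named members as they were. The cause of these moves was not tested, apart from centring and the limit, which act by construction. No paired analysis was possible because every array holds the same control and there is 1 group. Probes near background, such as those of Xpo5 and Kpna4, limit what the ratios can show.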

Other observations

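Several members that carry out 1 task together had unequal ratios with their brightest probes, beyond the spread between arrays. In the repeat-carrying complex of the channel, Nup54 lay 1.52 above Nupl1 and 2.06 above Nup62 on the log2 scale with the brightest probes; the other probes of Nupl1 ran from 1.04 to 2.12. In the inner ring, Nup155 lay 1.58 above Nup188, and at the basket Nup153 lay 1.54 above Tpr. The other probe of Nup153 gave a log2 ratio of 1.78 and that of Tpr 0.82, values closer to each other. The transportins Tnpo1 and Tnpo2, close relatives, lay 2.15 apart and on opposite sides of equality, and the other probe of Tnpo1 gave 2.26. Each of these differences had the same sign on all 3 arrays and under all 5 scalings, for the brightest probe of each gene. The pairs were picked with their values known, and Nup155 and Nup188 are the highest and lowest of the inner ring. A stable sign is thus no separate support, and centring, 1 of the 5 scalings, cannot change a difference. Each difference also compares probes of different genes, whose response to RNA may differ.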
